A study of Mus musculus with 24 samples.

Results

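The extracellular matrix that muscle cells secrete was followed through 54 genes for its glycoproteins, the enzymes that crosslink and modify collagen, and the proteases and inhibitors that turn it over. Members were taken by gene symbol, and each was read from the probe set with the highest mean over all cultures that named that gene alone, on array design MA where MA had one and otherwise on MB. Of the 54 genes 51 had such a probe set, 50 on MA and 1, Cilp, on MB, out of 18193 genes with a probe set in all. The rule gave no probe set for Spp1, Fbn1 and Loxl2, which were not analysed here. The mean lay above the filter for low values, the 40th percentile of a design, in 44 of the 51.

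RNA came from C2C12, a line of mouse myoblasts that can fuse into myotubes. Cultures fell into 4 groups of 3: DM with 5 mM glucose, GM with 5 mM glucose, DM with 25 mM glucose and GM with 25 mM glucose. GM and DM are read here as growth medium and differentiation medium, their usual meaning for this line, since the labels abbreviate them. Each of the 12 cultures was hybridised to both designs, which makes 24 arrays, and the stated question is whether calorie restriction alters the differentiation of skeletal myoblasts. The labels give neither the time in medium nor other components, and they do not say whether replicates were grown separately, and the p-values then cover only how far these samples differ, which may be technical.

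Fibronectin, laminins and nidogens hold cells to the matrix around them, and the laminin chain alpha-2 is typical of the basement membrane of muscle fibres. Fibulins and microfibril-associated proteins assemble elastic fibres, prolyl and lysyl hydroxylases modify collagen inside the cell, and lysyl oxidases crosslink collagen and elastin outside it. Metalloproteinases of the Mmp and Adamts families cleave these proteins, and the Timp proteins inhibit the proteases.

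The glucose change of 4 members, Tnc, Cilp, Olfml3 and Mfap4, differed between the media, and the promoters of those among them in the RefSeq promoter table (GRCm38.p6) are shown because they are the genes on which the glucose results turn. Each line gives the 250 bases before the annotated start, on the gene's strand: chr4:64047016-64047265 (minus) for Tnc, which has 2 windows in the table, chr9:65264930-65265179 (plus) for Cilp and chr3:103738002-103738251 (minus) for Olfml3. Capitals mark matches to any of 4 motifs searched on both strands. The first, CAGCTG, is an E-box that factors of the MyoD family can bind, and CACGTG is an E-box of another kind. The others were GGAATG, which is recognised by TEAD factors, and TATAAA, a core promoter element.
Tnc: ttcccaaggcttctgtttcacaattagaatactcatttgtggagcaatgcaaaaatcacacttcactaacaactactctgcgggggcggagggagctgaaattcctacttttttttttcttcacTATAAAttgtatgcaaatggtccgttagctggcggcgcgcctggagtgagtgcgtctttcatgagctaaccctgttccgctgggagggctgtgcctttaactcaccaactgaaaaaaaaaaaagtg
Cilp: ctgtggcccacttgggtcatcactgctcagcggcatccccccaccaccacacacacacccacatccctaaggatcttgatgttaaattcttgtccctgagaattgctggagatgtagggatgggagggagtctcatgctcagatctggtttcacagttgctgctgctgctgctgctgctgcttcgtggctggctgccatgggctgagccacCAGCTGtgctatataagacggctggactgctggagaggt
Olfml3: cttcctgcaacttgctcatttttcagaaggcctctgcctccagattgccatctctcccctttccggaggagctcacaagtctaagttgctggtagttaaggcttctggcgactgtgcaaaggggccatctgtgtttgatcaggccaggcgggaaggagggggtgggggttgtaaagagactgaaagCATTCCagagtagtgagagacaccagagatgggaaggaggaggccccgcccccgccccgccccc
The Tnc window held TATAAA at -126 to -121 from the start, the Cilp window CAGCTG at -39 to -34, and the Olfml3 window GGAATG on the other strand at -64 to -59. None of the 3 windows held CACGTG. Among 32851 promoter windows of this length, 13.0% held CAGCTG, 6.02% CACGTG, 12.6% GGAATG and 12.4% TATAAA. The 36 members in the table have 42 windows, of which 8 (19.0%) held CAGCTG, 2 (4.76%) CACGTG, 5 (11.9%) GGAATG and 9 (21.4%) TATAAA. These matches describe the letters only.

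The 18S ribosomal RNA control on MA read 3.71 to 9.84 in 4 cultures, called low-18S here, and 139 to 801 in the other 8, a division absent from the labels. Low-18S cultures were replicate 2 of DM at 5 mM, replicates 1 and 2 of GM at 5 mM and replicate 3 of DM at 25 mM. The low-18S cultures are too few for comparisons among themselves, so values are given with this batch as a term and in the 8 high-18S cultures, of which 1 is from GM at 5 mM. The log2 ratio of the 3' to the 5' Actb control was 0.0987 to 0.372 in DM, against -0.0511 to 0.383 in GM, for 5 mM, and 0.115 to 0.178 in DM, against 0.338 to 0.553 in GM, for 25 mM. Its part in the medium results was not tested.

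Muscle markers fitted the labelled line. All 6 were above the filter, with Myod1 at 975.8 to 1565 in every culture and Myog averaging 6250 in DM and 20.6 in GM at 5 mM, and 6129 in DM and 14.8 in GM at 25 mM. At 5 mM Myh3 averaged 3125 in DM and 6.33 in GM, Ckm 2370 and 48.95, Des 2412 and 1169, and Myf5 59.0 and 82.5. At 25 mM these averaged 4497 and 9.89, 3657 and 72.95, 2759 and 1143, and 48.2 and 62.7. Within DM, Myh3, Ckm and Des were thus lower at 5 mM, while Myf5 and Myog were slightly higher. The part of this in the glucose results was not tested. None of the 5 fibroblast markers, the 4 adipocyte markers with a probe set or the 4 chondrocyte markers was above the filter. One marker was above it for tendon (Scx), osteoblasts (Sp7), endothelium (Kdr), blood cells (Adgre1) and smooth muscle (Smtn), the last with a summed level of 524 to 583 in DM and 202 to 241 in GM at 5 mM, and 505 to 678 in DM and 209 to 255 in GM at 25 mM. Scx averaged 132.7 in DM and 65.4 in GM at 5 mM, and 191.9 in DM and 79.6 in GM at 25 mM. The other tendon markers, Tnmd and Mkx, were under the filter. At 5 mM they averaged 6.90 and 44.8 in DM, against 12.1 and 59.5 in GM. At 25 mM they averaged 26.9 and 61.7 in DM, against 20.6 and 62.2 in GM. Markers of osteoblasts summed to 62.3 to 144 in DM and 183 to 273 in GM at 25 mM, and those of endothelium to 80.4 to 101 in DM and 124 to 139 in GM, without overlap. Those of blood cells (66.8 to 92.1 in DM, 93.05 to 140.5 in GM) and adipocytes (36.2 to 46.2 in DM, 46.6 to 103 in GM) were also lower there. At 5 mM each of these overlapped, with 62.8 to 235.7 in DM and 102 to 167 in GM for osteoblasts. For endothelium the 5 mM sums were 81.8 to 119.5 in DM and 66.5 to 82.7 in GM. Of the osteoblast, endothelial, blood cell and adipocyte markers only Sp7, Kdr and Adgre1 were above the filter, so the rest of each sum is near background. The median intensity on MA was 48.6 to 51.2 in DM and 59 to 61.2 in GM at 25 mM. At 5 mM it was 50.5 to 52.9 in DM and 52.3 to 54.1 in GM. The part of this shift, or of these cells, in the results was not tested. In such bulk RNA fewer cells of a type cannot be told apart from less RNA per cell, or here from a change of background.

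In DM the matrix genes split. Lysyl oxidases Lox and Loxl3, nidogen 1, fibulins 1 and 2, the metalloproteinases Mmp2 and Mmp14 and the inhibitor Timp1 were lower in DM than in GM at both glucose levels, while periostin, fibulin 5, the laminin chain alpha-2 and the Adamts proteases 1 and 5 were higher. At 25 mM glucose 10 of 44 members were higher and 16 lower in DM (adjusted p under 0.05, limma), which is 22.7% and 36.4% of the members, against a background of 12.7% of all 12135 tested genes higher and 16.7% lower. At 5 mM the numbers were 9 higher and 18 lower, 20.5% and 40.9% of the members, against 9.95% and 14.2% of all genes. The median log2 change of the members was -0.32 at 25 mM and -0.25 at 5 mM, against -0.11 and -0.04 for all tested genes. The shares of all genes, here and below, join both designs, while every tested member but Cilp was read on MA. In simulated data 100 probe sets were changed by log2 1 and 100 by log2 2, of 13575 tested on MA and 13506 on MB. Changes of log2 1 were recovered in 66% of cases on MA and 6% on MB. Far larger shares of genes were called between the media, and recovery at a given adjusted p depends on the share that changes. These percentages are therefore not the recovery in the real data. The effect of the difference between designs on the shares was not tested. Changes are differences of log2(intensity + 20), a scale that understates the change of dim probe sets.

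The comparisons at 25 and 5 mM use different cultures. Called higher in DM in both were 7 members (Postn, Fbln5, Lama2, Ogn, Loxl1, Adamts1 and Adamts5), and called lower in both were 15 (Fn1, Thbs2, Thbs3, Olfml3, Fbln1, Fbln2, Nid1, Vcan, Lox, Loxl3, Plod1, Pcolce, Mmp2, Mmp14 and Timp1). No member was called in opposite directions in this fit, although Lama5 was under some alternatives. Called at 25 mM and not at 5 mM were 4 (Cilp, Mfap4, Lama5 and Plod2), called at 5 mM and not at 25 mM were 5 (Tnc, Lamc1, P4ha2, Timp2 and Timp3), and 13 were called at neither. Such a split does not show that the medium change differs with glucose, for which the interaction below is the test. Other tested probe sets of called members had a change of the same sign in 20 of 21 cases at 25 mM and 24 of 26 at 5 mM. Of these probe sets 11 at 25 mM and 15 at 5 mM were themselves called in the same direction, and none was called in the opposite one. Matching counts over all genes, for calls in both comparisons and for agreement of probe sets, are not given here. The counts in this paragraph are therefore not set against a background.

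**Figure D1:**
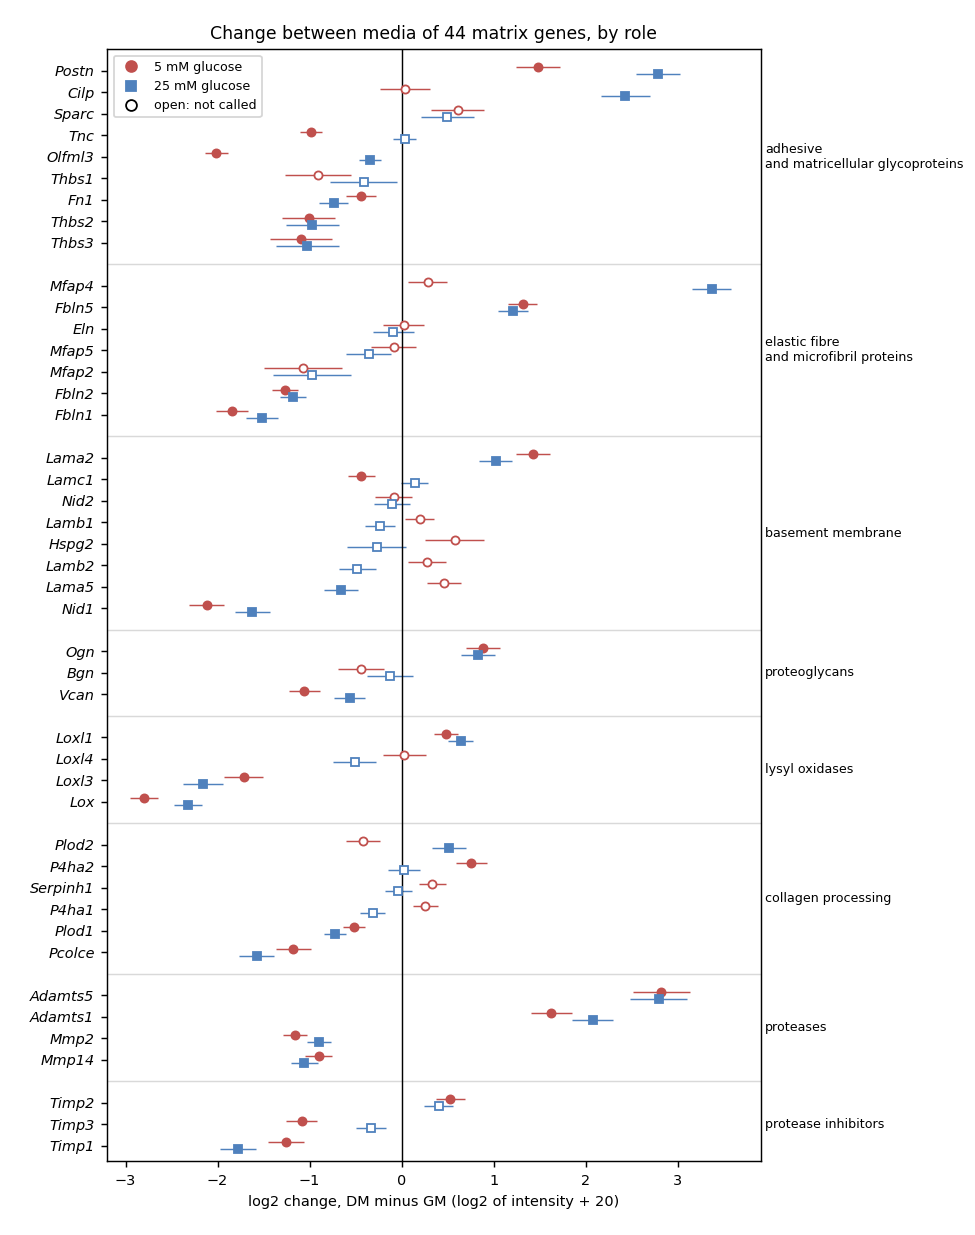
Log2 change in intensity of DM over GM (horizontal axis, log2(intensity + 20) scale) for the 44 tested matrix genes, grouped by role with SE bars, with the change at 5 mM and at 25 mM glucose marked separately and filled where adjusted p was under 0.05. Lox has the lowest values, -2.80 at 5 mM and -2.32 at 25 mM, and Mfap4 has the highest at 25 mM, 3.37.

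Among lysyl oxidases, which start the crosslinks of collagen and elastin, Lox read 245, 306 and 336 in DM, against 2209, 2254 and 2026 in GM, at 5 mM glucose. With 25 mM glucose its intensities were 294, 375 and 440.2 in DM, against 1929, 1713 and 2098 in GM. Every DM culture lay far below every GM culture at both glucose levels. The log2 change was -2.80 (SE 0.15, adjusted p = 6.2e-09) at 5 mM and -2.32 (SE 0.15, adjusted p = 3.91e-08) at 25 mM, and a second probe set gave -2.73 and -2.49.

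Loxl3, a relative of Lox, fell in DM as well. It read 113, 53.99 and 102 in DM, against 288, 285 and 437 in GM, at 5 mM, and 86.0, 70.4 and 71.6 in DM, against 391, 382 and 456 in GM, at 25 mM, without overlap. Its log2 change was -1.72 (SE 0.21, adjusted p = 2.6e-05) at 5 mM and -2.16 (SE 0.21, adjusted p = 2.39e-06) at 25 mM. Loxl1, which acts on elastin, went the other way. Its intensities were 1304, 1066 and 1263 in DM, against 811, 832 and 933 in GM, at 5 mM, and 1571, 1641 and 1344 in DM, against 866, 968 and 1068 in GM, at 25 mM. The DM cultures were the higher ones throughout, by log2 0.48 (SE 0.13, adjusted p = 0.0125) at 5 mM and 0.64 (SE 0.13, adjusted p = 0.00168) at 25 mM. The call at 5 mM was lost without replicate 1 of DM at 5 mM (0.43) or replicate 1 of GM at 5 mM (0.44), and in the high-18S cultures (0.45). Loxl4 had log2 changes of 0.03 at 5 mM and -0.51 at 25 mM and was not called (adjusted p = 0.942 and 0.103), while its second probe set, slightly dimmer, gave -0.97 and -1.41 (adjusted p = 0.0477 and 0.00555).

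**Figure D2:**
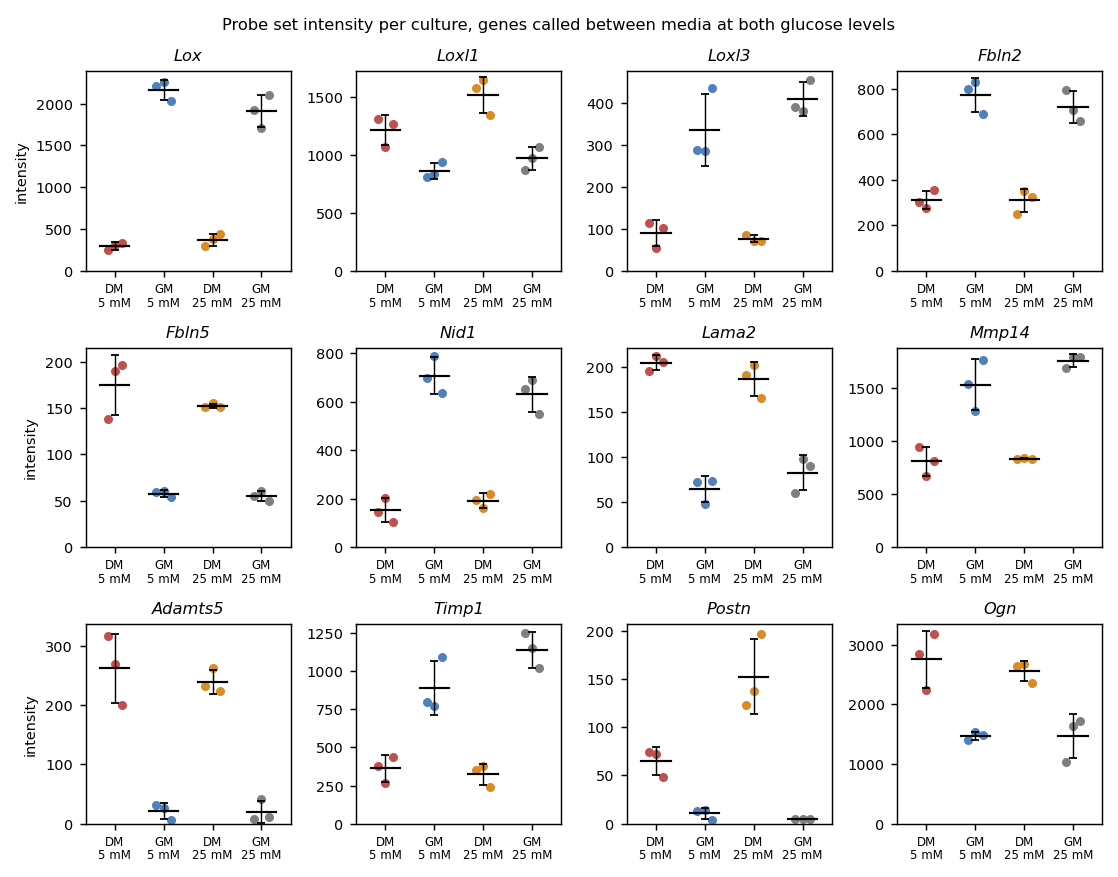
Probe set intensity (vertical axis, linear) in each culture for 12 matrix genes called between the media at both glucose levels, chosen as examples after their values were seen; points are cultures, the horizontal line is the mean and the bar is the SD of 3 cultures. Groups run DM then GM at 5 mM, then DM and GM at 25 mM; Lox lies between 245 and 440.2 in the DM cultures and between 1713 and 2254 in the GM cultures.

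Of 6 genes of collagen processing, 1 was higher and 2 lower in DM at each glucose level, which is 16.7% and 33.3%. Of all tested genes 12.7% were higher and 16.7% lower at 25 mM, and 9.95% and 14.2% at 5 mM. Pcolce, which enhances the removal of the C-propeptide from procollagen, averaged 1145 ± 99.7 in DM and 2702 ± 912 in GM at 5 mM, and 1106 ± 97.0 in DM and 3339.5 ± 347 in GM at 25 mM (SD, n = 3 each). It fell by 1.18 (SE 0.19, adjusted p = 0.000273) on the log2 scale at 5 mM and by 1.58 (SE 0.19, adjusted p = 1.68e-05) at 25 mM. Plod1, a lysyl hydroxylase, fell by 0.52 and 0.73 (adjusted p = 0.00453 and 0.000307).

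Serpinh1, a chaperone for procollagen in the endoplasmic reticulum, did not pass in either comparison. Its intensities were 1486, 1826 and 1840.1 in DM, against 1273, 1489.9 and 1304 in GM, at 5 mM, and 1165, 1232 and 1437 in DM, against 1151, 1272 and 1526 in GM, at 25 mM. These ranges overlapped, with log2 differences of 0.33 (95% interval 0.02 to 0.65, adjusted p = 0.106) and -0.04 (95% interval -0.35 to 0.27, adjusted p = 0.86). With the 18S batch as a term Serpinh1 was called higher at 5 mM (0.39, adjusted p = 0.0179).

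P4ha2, a catalytic subunit of prolyl 4-hydroxylase, read 158, 159.7 and 204 in DM, against 100.1, 101 and 81.7 in GM, at 5 mM. With 25 mM glucose it read 145, 129.8 and 99.7 in DM, against 139, 110.2 and 116 in GM. The groups were apart at 5 mM, where it was higher in DM by log2 0.76 (SE 0.17, adjusted p = 0.00343), and overlapped at 25 mM, with a difference of 0.03 (adjusted p = 0.92).

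Plod2, the lysyl hydroxylase of collagen telopeptides, read 264, 303 and 293 in DM, against 433, 428 and 318 in GM, at 5 mM, and 534, 376 and 629 in DM, against 281, 356 and 414 in GM, at 25 mM. Its groups overlapped at 25 mM, where it was called higher by 0.51 (SE 0.19, adjusted p = 0.045), a call lost in 15 of 27 alternatives. It was lost without replicate 1 or 3 of either DM group, or replicate 1 or 2 of either GM group (0.36 to 0.53). The 5 mM difference, -0.42, did not pass (adjusted p = 0.112).

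Basement membrane genes moved in both directions. Nid1, nidogen 1, which links laminin to type IV collagen, read 147, 204 and 104 in DM, against 699, 788 and 636 in GM, at 5 mM, and 194, 160.0 and 221 in DM, against 652, 689 and 549 in GM, at 25 mM. All DM cultures lay below all GM cultures, by log2 -2.12 (SE 0.19, adjusted p = 8.96e-07) at 5 mM and -1.62 (SE 0.19, adjusted p = 1.11e-05) at 25 mM. Nid2, its paralogue, had differences of -0.09 and -0.11 (adjusted p = 0.796 and 0.713).

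Lama2, the laminin chain alpha-2, read 196, 213 and 206 in DM, against 72.2, 48.4 and 73.2 in GM, at 5 mM. The 25 mM cultures gave 191, 203 and 166 in DM, against 60.6, 98.4 and 90.1 in GM. Here every DM culture was the higher, with log2 changes of 1.43 (SE 0.18, adjusted p = 2.98e-05) at 5 mM and 1.02 (SE 0.18, adjusted p = 0.000523) at 25 mM. Lama5, the laminin chain alpha-5, was called lower in DM at 25 mM (-0.66, SE 0.19, adjusted p = 0.0132) and differed by 0.46 at 5 mM without passing (adjusted p = 0.08). At 5 mM it was called higher with the 18S batch as a term (0.30), with array weights (0.70), without replicate 2 of DM at 5 mM (0.62) and without replicate 3 of GM at 5 mM (0.68), and in each of these it was still called lower at 25 mM. The 25 mM call was lost without replicate 3 of DM at 25 mM (-0.55) and under median centring (-0.46). A second Lama5 probe set was called at neither level, with -0.34 at 25 mM and -0.002 at 5 mM (adjusted p = 0.127 and 0.995).

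Lamc1, the gamma-1 chain shared by most laminins, read 204, 219.7 and 163 in DM, against 227, 312 and 278 in GM, at 5 mM, and 278, 304 and 287 in DM, against 292, 243 and 248 in GM, at 25 mM. The groups were apart at 5 mM, where the change of -0.44 (SE 0.15, adjusted p = 0.0359) was lost in 11 of 27 alternatives, and overlapped at 25 mM (0.14, adjusted p = 0.474). Leaving out replicate 1 or 3 of DM, or replicate 2 or 3 of GM, at 5 mM ended the call (-0.47 to -0.32). The beta chains Lamb1 and Lamb2 and the heparan sulphate proteoglycan Hspg2 were called at neither glucose level, with differences between -0.48 and 0.58. Some alternatives did call them. At 25 mM Lamb1 was lower without replicate 3 of DM at 25 mM (-0.44), and Lamb2 without replicate 2 of GM at 25 mM (-0.62). At 5 mM Hspg2 was higher with array weights (0.85).

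Adhesive and matricellular glycoproteins were lower in DM in most calls: 2 higher and 4 lower of 9 at 25 mM, and 1 higher and 5 lower at 5 mM. These are 22.2% and 44.4% at 25 mM, against 12.7% and 16.7% of all genes. At 5 mM they are 11.1% and 55.6%, against 9.95% and 14.2%, so the higher share there was near that of all genes. Fn1, fibronectin, read 2781, 3044 and 3270.5 in DM, against 3799.7, 3774 and 4869 in GM, at 5 mM, and 2812, 2908 and 2781 in DM, against 4528, 4508 and 5220.4 in GM, at 25 mM. The DM cultures were the lower ones, by log2 -0.44 (SE 0.16, adjusted p = 0.0492) at 5 mM and -0.74 (SE 0.16, adjusted p = 0.00221) at 25 mM. The call at 5 mM was lost when any 1 of the 12 cultures was left out (-0.50 to -0.32), while a second, dim probe set gave -1.84 (adjusted p = 4.52e-05) there.

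Postn, periostin, a matricellular protein that binds collagen, was dim in GM. It read 74.1, 72.5 and 48.0 in DM, against 13.2, 14.4 and 3.78 in GM, at 5 mM, and 123, 138 and 197 in DM, against 4.62, 4.995 and 4.44 in GM, at 25 mM. The GM cultures all lay under the filter's intensity of 35.5 and the DM cultures all above it, so Postn passed the filter only through DM. The log2 change was 1.48 (SE 0.24, adjusted p = 0.000254) at 5 mM and 2.78 (SE 0.24, adjusted p = 5.43e-07) at 25 mM.

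Sparc, a collagen-binding glycoprotein, read 7243, 4373 and 8682 in DM, against 3972, 3419.8 and 5681 in GM, at 5 mM, and 8492, 8587 and 5007 in DM, against 4973, 5403 and 4839 in GM, at 25 mM. The ranges overlapped and the differences of 0.61 and 0.49 did not pass (adjusted p = 0.134 and 0.197). Both low DM values belonged to low-18S cultures, and with the 18S batch as a term Sparc was called higher by 0.36 at 5 mM (adjusted p = 0.00812) and 0.74 at 25 mM (adjusted p = 1.74e-05).

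Thbs1, thrombospondin 1, read 327, 838 and 392 in DM, against 1014, 1301 and 571 in GM, at 5 mM, and 349, 421 and 812 in DM, against 769, 542 and 703 in GM, at 25 mM. It too overlapped between media and was not called (-0.91 and -0.41, adjusted p = 0.0752 and 0.394). With the batch term it was called lower, by -0.55 at 5 mM (adjusted p = 0.00679) and -0.77 at 25 mM (adjusted p = 0.000478). Thbs2 and Thbs3 were called lower in both comparisons, by -1.01 and -1.09 at 5 mM and -0.97 and -1.02 at 25 mM, from DM means of 21.4 to 28.9, under the filter's intensity, against GM means of 61.1 to 78.9. The Thbs2 calls were lost without replicate 2 of DM or replicate 1 or 3 of GM at 25 mM (-0.92 to -0.74), and without replicate 1 of DM or replicate 2 of GM at 5 mM (-0.91 to -0.75). Those of Thbs3 were lost without replicate 1 of DM or replicate 1 or 3 of GM at 25 mM (-0.98 to -0.74), and without replicate 2 of DM or any 1 culture of GM at 5 mM (-1.10 to -0.70). In the high-18S cultures the calls of Thbs2 were lost at both levels (-0.94 and -0.91) and that of Thbs3 at 5 mM (-0.73). Quantile normalization ended the 25 mM calls of Thbs2 and Thbs3 (-0.80 and -0.84), as did median centring (-0.77 and -0.83). A probe set of Thbs2 on MB gave 0.37 at 5 mM and -0.32 at 25 mM and was not called.

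Elastic fibre genes also divided. Fbln1, fibulin 1, read 111, 91.6 and 107 in DM, against 502, 449.6 and 332 in GM, at 5 mM, and 129, 129 and 86.9 in DM, against 351, 340.0 and 397 in GM, at 25 mM, with no overlap. It fell by 1.85 (SE 0.17, adjusted p = 1.46e-06) on the log2 scale at 5 mM and by 1.52 (SE 0.17, adjusted p = 9.1e-06) at 25 mM, while its probe set on MB gave 0.01 and -0.19 and was not called. Fbln2 fell by 1.27 and 1.18 (adjusted p = 1.07e-05 and 1.88e-05). Fbln5, which tethers elastin to cells, was higher by 1.31 and 1.21 (adjusted p = 2.34e-05 and 4.57e-05), with 138 to 197 in DM and 49.5 to 60.2 in GM over both glucose levels.

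Eln, elastin itself, read 81.5, 54.3 and 60.02 in DM, against 54.2, 62.5 and 74.1 in GM, at 5 mM, and 99.2, 96.3 and 65.3 in DM, against 66.4, 127 and 92.7 in GM, at 25 mM. Its groups overlapped at both levels, and the differences of 0.02 (95% interval -0.46 to 0.50) and -0.09 (95% interval -0.57 to 0.39) did not pass. Mfap2 and Mfap5, proteins of microfibrils, were called in neither comparison, with differences of -1.07 and -0.97 for Mfap2 and -0.09 and -0.36 for Mfap5. Mfap2 was called lower at 5 mM with the 18S batch as a term (-1.16, adjusted p = 0.0486) and in other alternatives. At 25 mM it was called lower without replicate 3 of DM at 5 mM (-0.97) or replicate 1 of GM at 25 mM (-1.43).

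Of the proteoglycans 3 were tested. Ogn, osteoglycin, averaged 2755 ± 475 in DM and 1473 ± 66.5 in GM at 5 mM, and 2557 ± 169.5 in DM and 1464 ± 372 in GM at 25 mM, and was called higher by 0.88 and 0.83 (SE 0.19 each, adjusted p = 0.00234 and 0.00313). Vcan, versican, a large proteoglycan of provisional matrix, was lower by -1.06 at 5 mM (SE 0.17, adjusted p = 0.000228) and -0.56 at 25 mM (SE 0.17, adjusted p = 0.0177). The Vcan call at 25 mM was lost without replicate 1 or 2 of DM or replicate 3 of GM at 25 mM (-0.51 to -0.49) and under median centring (-0.36). Bgn, biglycan, was bright (2136 to 5402) and was not called, with differences of -0.44 and -0.12. At 5 mM it was called lower with quantile normalization (-0.62), with the 18S batch as a term (-0.67, adjusted p = 1.41e-05) and in the high-18S cultures (-0.77). Of its other probe sets 1 was called lower there (-0.81, adjusted p = 0.00999).

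All 4 tested proteases were called at both glucose levels, 2 higher and 2 lower. Of all tested genes 12.7% were called higher and 16.7% lower at 25 mM, and 9.95% and 14.2% at 5 mM. Shares of so few genes say little of the role. Adamts5 averaged 21.0 in GM at 5 mM and 19.9 in GM at 25 mM, under the filter's intensity of 35.5, so it passed the filter only through DM. Adamts5, which cleaves aggrecan and versican, read 316, 270.1 and 200.2 in DM, against 31.6, 25.8 and 5.76 in GM, at 5 mM, and 232, 263 and 223 in DM, against 7.40, 41.1 and 11.1 in GM, at 25 mM. The DM cultures were far above the GM cultures, by log2 2.82 (SE 0.31, adjusted p = 6.96e-06) at 5 mM and 2.79 (SE 0.31, adjusted p = 6.65e-06) at 25 mM, and 2 other tested probe sets were also called higher in both comparisons. Adamts1, a related protease, read 156, 206 and 158 in DM, against 32.3, 40.3 and 56.1 in GM, at 5 mM, and 237, 204 and 288 in DM, against 41.3, 27.5 and 61.0 in GM, at 25 mM. It too was higher in every DM culture, by 1.63 (SE 0.22, adjusted p = 5.57e-05) and 2.08 (SE 0.22, adjusted p = 4.75e-06). The genes lie 55 kb apart on chromosome 16 (GRCm38.p6) with 1 gene between them.

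Mmp2, gelatinase A, read 403, 361 and 418 in DM, against 899, 814 and 1002 in GM, at 5 mM, and 523, 567 and 414 in DM, against 944, 880.3 and 1009.6 in GM, at 25 mM. Mmp14, the membrane protease that activates proMmp2, read 942, 671 and 814 in DM, against 1536, 1286 and 1764 in GM, at 5 mM, and 834, 841 and 828 in DM, against 1686, 1792 and 1794 in GM, at 25 mM. Both were lower in DM without overlap. Mmp2 fell by 1.16 and 0.90 (SE 0.13 each, adjusted p = 1.17e-05 and 0.000116), and Mmp14 by 0.90 and 1.06 (SE 0.14 each, adjusted p = 0.000233 and 4.96e-05), at 5 and 25 mM.

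The inhibitors did not move alike. Timp1 read 381, 266 and 440.1 in DM, against 796, 775 and 1093 in GM, at 5 mM, and 349.6, 377 and 242 in DM, against 1252, 1154 and 1019.6 in GM, at 25 mM. It was the lower in every DM culture, with log2 changes of -1.26 (SE 0.20, adjusted p = 0.000213) at 5 mM and -1.78 (SE 0.20, adjusted p = 7.28e-06) at 25 mM. Timp2 was called higher in DM at 5 mM (0.53, SE 0.16, adjusted p = 0.0205) and differed by 0.40 at 25 mM (adjusted p = 0.0596). At 25 mM a second probe set was called higher (0.49, adjusted p = 0.00468), and the first was called under median centring (0.60), with the 18S batch as a term (0.50), and in other alternatives. Its 5 mM call was lost without replicate 1 or 3 of DM, or replicate 1 or 2 of GM, at 5 mM (0.46 to 0.53) and in the high-18S cultures (0.45), and none of its other probe sets was called at 5 mM.

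Low glucose changed few matrix genes in DM and none passed the test in GM. In DM, 1 of 44 members was higher and 6 lower at 5 mM than at 25 mM glucose, 2.27% and 13.6% of the members, against 0.461% of all tested genes higher and 0.964% lower. The median of the members was -0.01, against 0.01 for all tested genes. An unadjusted p under 0.05 was found by limma in 16 of 44 members, against 1191 of all 12135 tested genes. With the 18S batch as a term the count was 12 (3 higher, 9 lower). Calls over all 12135 genes rose with this term as well, from 56 higher and 117 lower to 179 and 240. Without replicate 3 of DM at 5 mM, or replicate 1 of DM at 25 mM, the count of members was 4.

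In GM no member was called at 5 mM against 25 mM by limma. An unadjusted p under 0.05 was found in 2 of 44 members, against 1157 of all 12135 tested genes. Of all tested genes 0.00824% were called higher and 0 lower. The smallest p was that of Loxl4, with 54.8, 43.8 and 28.7 at 5 mM, against 59.3, 84.1 and 67.4 at 25 mM. The 5 mM cultures were the lower, by log2 -0.54 (SE 0.23, adjusted p = 0.453).

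By limma's interaction test the glucose change differed between the media for 4 members, all with a lower change in DM (9.09% of the members), against 0.363% of all tested genes; no member was called in the other direction, against 0.132%. All 4 were called lower at 5 mM within DM. Among them Mfap4 passed the filter only through DM at 25 mM. With the 18S batch as a term 6 members were called, these 4 among them. Over all genes the calls rose as well, from 16 higher and 44 lower to 26 and 67. In the high-18S cultures 1 of them, Olfml3, was called, and without replicate 2 of GM at 5 mM or replicate 2 of DM at 25 mM, 2 were.

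**Figure D3:**
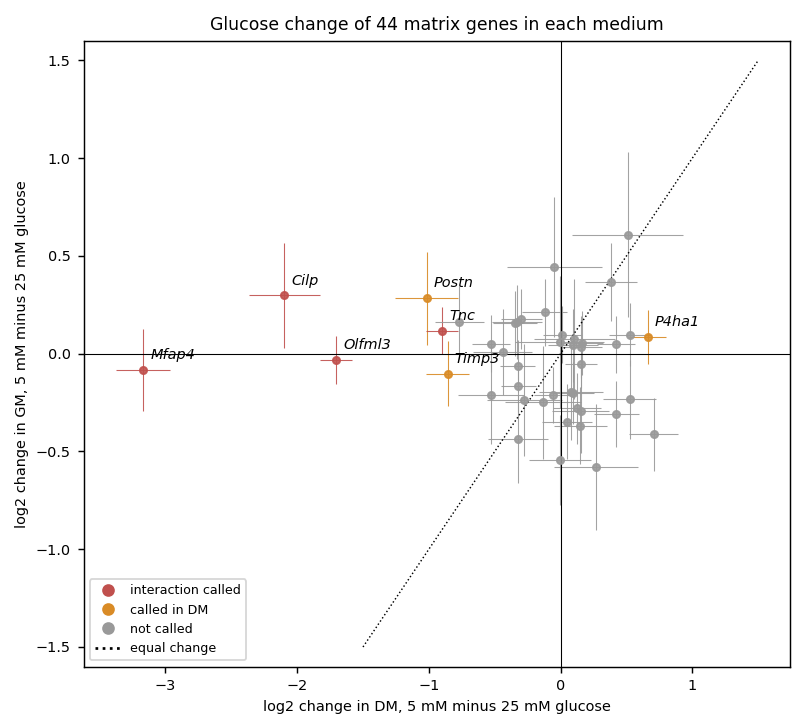
Log2 change of intensity at 5 mM over 25 mM glucose in DM (horizontal axis) and in GM (vertical axis) for the 44 tested matrix genes, with SE bars; the dotted line marks equal change. Mfap4, Cilp, Olfml3 and Tnc lie left of the line with changes of -3.17 to -0.90 in DM and -0.08 to 0.30 in GM.

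Olfml3, a secreted olfactomedin-domain glycoprotein (Entrez 99543, chromosome 3, 103735394 to 103738001, GRCm38.p6), read 74.7, 103 and 84.6 in DM at 5 mM, against 323, 335 and 325 in DM at 25 mM. In GM it read 428, 401 and 406 at 5 mM, against 394, 438 and 432 at 25 mM. DM at 5 mM was the lowest group, and DM at 25 mM lay below every GM culture. The glucose change was -1.70 (SE 0.12, adjusted p = 7.46e-06) in DM and -0.03 (SE 0.12, adjusted p = 0.924) in GM, and the interaction was -1.67 (SE 0.17, adjusted p = 0.000828). This interaction was called under all 26 alternatives run. Between media it was lower in DM by -2.01 at 5 mM (adjusted p = 1.68e-08) and by -0.34 at 25 mM (adjusted p = 0.0407), and the second call was lost in 14 of 27 alternatives. Among these were leaving out replicate 1 or 2 of GM at 5 mM, any 1 culture of DM at 25 mM, or replicate 2 or 3 of GM at 25 mM (-0.36 to -0.31). Under median centring the difference was -0.14 (adjusted p = 0.417).

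Tnc, tenascin C, a matricellular protein of remodelling tissue (Entrez 21923, chromosome 4, 63959785 to 64047015), read 207, 207 and 205 in DM at 5 mM, against 341, 445 and 429 in DM at 25 mM. GM cultures read 399.6, 444 and 444 at 5 mM, against 403, 405 and 372 at 25 mM. DM at 5 mM lay below all other cultures, which overlapped among themselves. The glucose change was -0.90 (SE 0.12, adjusted p = 0.00107) in DM and 0.12 (SE 0.12, adjusted p = 0.691) in GM, with an interaction of -1.02 (SE 0.17, adjusted p = 0.0155). Its interaction was lost without replicate 2 of GM at 5 mM (-0.99), without replicate 2 of DM at 25 mM (-0.95), without the trend in eBayes (-1.02) and in the high-18S cultures (-1.02). DM against GM gave -0.99 at 5 mM (adjusted p = 2.03e-05) and 0.03 at 25 mM (95% interval -0.23 to 0.29, adjusted p = 0.862).

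In Mfap4 and Cilp it was DM at 25 mM that stood apart. Mfap4, a microfibril-associated glycoprotein (Entrez 76293, chromosome 11, 61485431 to 61488708), read 6.76, 6.85 and 6.61 in DM at 5 mM, against 239.8, 233 and 192 in DM at 25 mM. GM cultures gave 1.52, 2.30 and 2.18 at 5 mM, against 2.97, 4.55 and 2.46 at 25 mM. All 9 cultures outside DM at 25 mM lay under the filter's intensity of 35.5. Mfap4 therefore passed the filter only through DM at 25 mM, the group on which its calls rest. With GM near the floor at both glucose levels, a fall with glucose could not be seen there. The glucose change was -3.17 (SE 0.21, adjusted p = 4.55e-06) in DM and -0.08 (SE 0.21, adjusted p = 0.882) in GM, and the interaction was -3.09 (SE 0.29, adjusted p = 0.0006). Since the low groups are dim, the size depends on the pseudocount: the interaction was -4.33 with 1, where it was no longer called, and -1.98 with 64, and in the high-18S cultures it was -3.19 (adjusted p = 0.0692). DM against GM gave 3.37 at 25 mM (SE 0.21, adjusted p = 1.86e-08) and 0.28 at 5 mM (adjusted p = 0.357).

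Cilp, cartilage intermediate layer protein (Entrez 214425, chromosome 9, 65265180 to 65280614), read on MB, gave 205, 252 and 144 in DM at 5 mM, against 763, 867 and 1106 in DM at 25 mM. In GM it gave 199, 177 and 194 at 5 mM, against 125, 151 and 181 at 25 mM. The 3 cultures of DM at 25 mM were the only ones above 252. The glucose change was -2.10 (SE 0.27, adjusted p = 0.00105) in DM and 0.30 (SE 0.27, adjusted p = 0.812) in GM, with an interaction of -2.39 (SE 0.38, adjusted p = 0.0256). That interaction was lost in 13 of 26 alternatives, 9 of them with 1 culture left out (all but replicate 2 of DM at 5 mM and replicate 3 of each GM group), while its size stayed between -2.56 and -2.13. DM against GM gave 2.43 at 25 mM (SE 0.27, adjusted p = 4.38e-06) and 0.04 at 5 mM (adjusted p = 0.98).

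**Figure D4:**
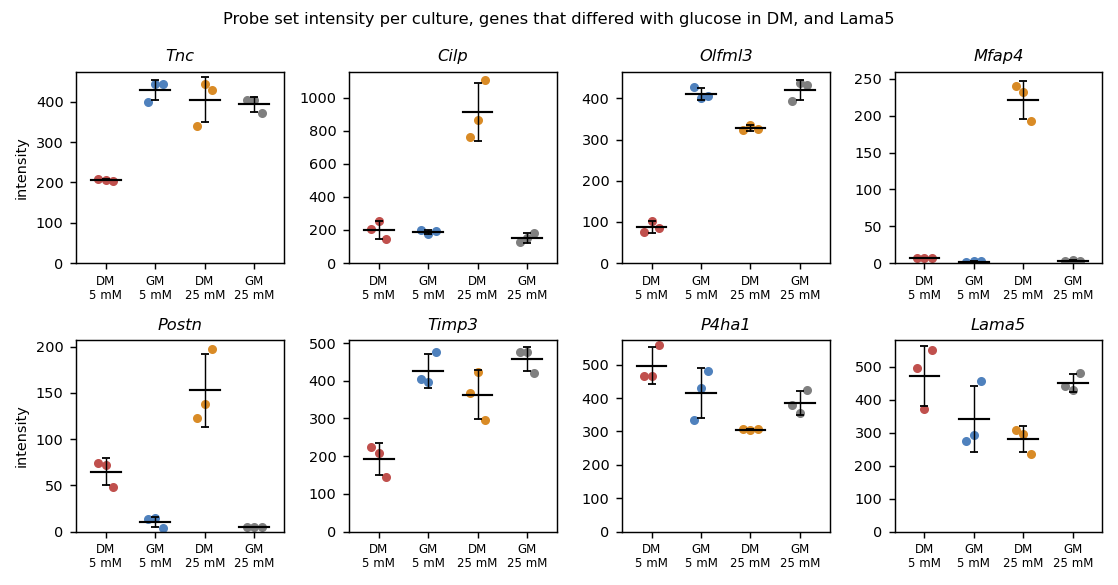
Probe set intensity (vertical axis, linear) in each culture for the 7 matrix genes called between glucose levels in DM, and Lama5, which was added after its values were seen; points are cultures, the horizontal line is the mean and the bar is the SD of 3 cultures. For Tnc and Olfml3 the 3 cultures of DM at 5 mM are the lowest, and for Mfap4 and Cilp the 3 of DM at 25 mM are the highest.

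The other calls with glucose in DM were smaller. Postn, whose cultures are given above, was lower at 5 mM than at 25 mM by -1.02 (SE 0.24, adjusted p = 0.0469), without overlap, a call lost in 17 of 26 alternatives and when any culture but replicate 3 of GM at 5 mM was left out (-1.14 to -0.84). Its interaction, -1.30, did not pass (adjusted p = 0.139). Timp3, an inhibitor that binds to the matrix, read 224, 208 and 144 in DM at 5 mM, against 368, 424 and 295 in DM at 25 mM. The GM values were 404, 396 and 477 at 5 mM, against 477, 475 and 419.6 at 25 mM. The DM cultures at 5 mM were the lowest of the 12. Its glucose change in DM was -0.86 (SE 0.17, adjusted p = 0.0152), lost without replicate 3 of DM at 5 mM (-0.68) or replicate 1 or 2 of DM at 25 mM (-0.84 and -0.74), and its interaction of -0.76 did not pass (adjusted p = 0.23). Between media Timp3 was lower in DM by -1.09 at 5 mM (adjusted p = 0.000157) and differed by -0.33 at 25 mM (adjusted p = 0.135).

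P4ha1, a catalytic subunit of prolyl 4-hydroxylase, was the one member called higher with low glucose in DM. It read 466, 465 and 560.3 in DM at 5 mM, against 306, 303 and 308 in DM at 25 mM. Within GM it read 334, 429 and 482 at 5 mM, against 379.9, 354 and 425 at 25 mM. The DM groups were apart and the GM groups overlapped. The change in DM was 0.66 (SE 0.14, adjusted p = 0.0246), lost without replicate 1 or 3 of DM at 5 mM (0.70 and 0.58) or any 1 culture of DM at 25 mM (0.66 to 0.67), and the interaction was 0.57 (adjusted p = 0.278).

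Lama5, Bgn, Plod2, Lamb1 and Lamc1 were not called with glucose in DM (0.71, -0.53, -0.77, 0.53 and -0.53). Each was called with the 18S batch as a term, which also called an interaction for Lama5 (0.80, adjusted p = 0.0226) and Bgn (-0.77, adjusted p = 0.00492). Without that term a second Lama5 probe set gave 0.38 with glucose in DM and 0.34 for the interaction (adjusted p = 0.418 and 0.562).

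The probe sets chosen for 7 members, Dcn, Lum, Fmod, Fbn2, Emilin1, Lama4 and Mmp3, lay under the filter and were not tested. Another probe set of Fbn2, fibrillin 2, on MB was above it and was not called, with differences of 0.54 at 5 mM and 0.83 at 25 mM (adjusted p = 0.771 and 0.52). Dcn, decorin, a small leucine-rich proteoglycan, read 54.6, 49.8 and 11.2 in DM, against 31.3, 34.3 and 14.9 in GM, at 5 mM, and 7.88, 19.5 and 35.8 in DM, against 9.12, 15.3 and 39.0 in GM, at 25 mM. The groups overlapped. Decorin lies 47.3 kb from lumican, Lum, on chromosome 10 with no gene between them, and the Lum intensities ran from 3.32 to 69.5.

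Among other genes of the matrix, a list of 61 proteins had 34 tested and one of 71 enzymes and inhibitors had 50. Of the proteins 4 were higher and 12 lower in DM at 25 mM, and 1 higher and 13 lower at 5 mM. These are 11.8% and 35.3% at 25 mM, against 12.7% and 16.7% of all genes, and 2.94% and 38.2% at 5 mM, against 9.95% and 14.2%. The largest were Ecm1 (-1.95), Ltbp2 (-1.91), which binds microfibrils, and Mfge8 (-1.74) at 25 mM, and Ltbp2 (-2.69), Cthrc1 (-2.06) and Ecm1 (-1.91) at 5 mM. Of the enzymes 5 were higher and 18 lower at 25 mM, which is 10% and 36%, and 6 higher and 11 lower at 5 mM, which is 12% and 22%. The shares of higher proteins at 25 mM and of higher enzymes at both levels were near those of all genes. They were led by Adamtsl2 (3.06), Pcolce2 (-2.49), a relative of Pcolce, and Plaur (-1.81), the urokinase receptor, at 25 mM, and by Adamtsl2 (3.49), Pcolce2 (-2.74) and Adam19 (1.63) at 5 mM. With glucose in DM 1 protein was higher and 2 lower (2.94% and 5.88%), and 2 enzymes were higher and 0 lower (4% and 0%). Of all genes 0.461% were higher and 0.964% lower. In GM none of either list was called by limma. There 5 of 34 proteins and 4 of 50 enzymes had an unadjusted p under 0.05, against 1157 of all 12135 genes. The interaction was called for 1 protein, Ccn2 (-1.83, adjusted p = 0.0119), and no enzyme.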

How the data were processed

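RNA of 12 cultures was measured on 2 array designs. The authors deposited linear intensity values per probe set, already on a common scale, with trimmed means of 150.049 to 150.066 on MA and 150.018 to 150.03 on MB. The software behind them is not given in the sources used here, and the number of arrays limits the precision. All deposited columns were used. Intensities were taken as log2(intensity + 20). Control probe sets were left out, and probe sets above the 40th percentile of the mean over 12 arrays were tested (an intensity of 35.5 on MA and 63.7 on MB). Genes were named through the platform annotation, updated by Entrez ID through RefSeq (GRCm38.p6).

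Each design was fitted with limma 3.58.1 in R 4.3.3 (group means over 12 arrays, eBayes with trend, two-sided, Benjamini-Hochberg within a design, called at an adjusted p under 0.05), after a test on simulated data. The interaction subtracts the GM glucose change from the DM one. Intervals are 95% intervals of the fit. Values in each culture were given for 23 listed members, except Spp1 and Fbn1, for which the rule gave no probe set. They were also given for the 8 largest calls of each medium comparison and up to 8 of each glucose comparison, or the smallest p. The members, lists and rule were chosen with earlier results of these data known. Alternatives covered the pseudocount, filter, scaling, fit, 18S batch, replicate block, probe set choice and each culture left out.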

Additional observations from a re-analysis of the deposited data

Results flagged for a closer look

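In 4 members the glucose change differed between DM and GM by limma's interaction test. The DM change less the GM change was -1.02 on the log2 scale for Tnc, which was lower at 5 mM in all 3 DM cultures. For Olfml3 it was -1.67, and its DM cultures at 5 mM were likewise the lowest. For Mfap4 it was -3.09 and for Cilp it was -2.39, and in both the 3 cultures of DM at 25 mM were above the other 9. Mfap4 passed the filter only through those 3 cultures. With its GM values near the floor, a fall with glucose could not be seen in GM, so its interaction adds nothing to its change in DM. The interaction of Cilp was lost in 13 of 26 alternatives, that of Tnc in 4 of 26 and that of Olfml3 in 0 of 26.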

How the results depend on the processing

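Counts of called members in DM against GM were 26 at 25 mM and 27 at 5 mM. With 1 culture left out they were 22 to 26 at 25 mM and 22 to 28 at 5 mM. The glucose count in DM, 7, was 4 with only the arrays compared and 4 to 9 with 1 culture left out. It was 12 with the 18S batch as a term, where calls over all genes rose too. The glucose count in GM, 0, was 3 with array weights and 0 with any culture left out. The interaction count, 4, was 2 without the trend in eBayes, 7 with array weights, 1 in the high-18S cultures and 2 to 5 with 1 culture left out. The cause was not tested. Thbs2 at 5 mM turned to 0.37, not called, with its brightest tested probe set on either design. Same-numbered cultures correlated at -0.561 to 0.521 on MA and -0.217 to 0.24 on MB, over 0.1 in 3 and 2 of 18 pairs. They were fitted as unpaired. Correlations this spread, from 3 cultures in each group, cannot exclude a shared origin, which the labels do not give. With the replicate block the counts were 24 and 25 between media, at 25 and 5 mM, 0 and 6 with glucose, in GM and DM, and 3 for the interaction. Median centring moved the median of all genes at 25 mM to 0.07, against -0.11, with 2089 higher and 1247 lower against 1539 and 2024, and gave 11 members higher and 11 lower. It moved that median to 0.12, against -0.01, with glucose in GM and to -0.14, against 0.02, for the interaction. Probe sets near background limit the size of the changes of Mfap4, Postn and Adamts5. Mfap4 passed the filter only through DM at 25 mM, Postn and Adamts5 only through DM, and Thbs2 and Thbs3 only through GM. Their calls rest on the groups that admitted them.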
